A study of Tachycineta bicolor with 14 samples.

Results

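In the whole brain of tree swallow embryos at embryonic day 11, 83 of 13375 genes had levels that separated the 2 maternal breeding densities without overlap. In 59 of them every high-density embryo exceeded every low-density one, and in 24 every high-density embryo fell short of every low-density one. Levels are given in CPM, the estimated count as a share of the sum of its library's column, scaled to a common depth. Members were selected on these CPM values: the mean over the 14 embryos was 1 CPM or more and the groups did not overlap, unless high-density embryos 2 and 4 both stood 4 times or more above, or 4 times or more below, the mean of the other 12. The members were thus chosen by the density difference itself, and that difference is given here as a description. Tests across all genes are given with their counts of members, but the members' counts support nothing.

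The tree swallow (Tachycineta bicolor) is a songbird that nests in cavities. Females of many birds deposit steroid hormones such as testosterone in the yolk, in amounts that can vary with the social conditions under which they lay, and the embryo develops in contact with that yolk. The title of the series names yolk testosterone and neural gene expression, and its design text states that breeding density varied naturally. The file gives genes by identifier (tree_swallow and a number) and pairs 7 of them with names, none of them a member. No function can therefore be given for any member, and of 26 marker genes of brain cell types, blood, muscle and steroid signalling looked up by symbol, 0 matched, so the tissue label was not checked against markers. In bulk tissue, fewer cells of a type and less RNA per cell cannot be told apart.

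Each group held 7 embryos, labelled high density and low density, with no genotype, sex or nest given. The high-density libraries held 4201024 to 6812901 estimated counts and the low-density libraries 3950422 to 6078272. A count of 0 allows up to 0.440 to 0.714 CPM in the high-density libraries and 0.494 to 0.759 CPM in the low-density libraries (3 counts; counting error only). Several libraries stood apart. High-density embryos 2 and 4 are the pair that the rule itself guards against, and in high-density embryo 7 only 11308 genes were detected, against 12225 to 12529 in the other high-density embryos and 11881 to 12379 in the low-density embryos. Its TMM factor, which scales a library by the bulk of its genes rather than by its sum, was also the lowest, 0.740, and low-density embryo 7 had the next lowest, 0.872, where the other 12 embryos lay between 0.978 and 1.15.

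Members were rare among expressed genes in either direction. Of 11495 genes with a mean of 1 CPM or more, 0.513% lay entirely above and 0.209% entirely below in high-density embryos. Before the guard against embryos 2 and 4 was applied there were 61 and 28 such genes, so that it removed 2 higher and 4 lower ones. Of the 6 removed genes, the one lowest in embryo 2 relative to the other 12 stood at 0.748 CPM in that embryo and at 7.49 CPM in embryo 4, against 32.9 to 45.9 CPM in low-density embryos. Among the members that stayed, the nearest to the removal limit had embryos 2 and 4 both at least 3.07 times the other 12 among higher members, and both at most 0.267 times among lower members. A further 2 genes separated the densities but fell short in abundance, with means of 0.993 and 0.522 CPM, while the least abundant member had a mean of 1.42 CPM.

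Gaps were ranked on a log2 scale with 0.5 CPM added to both edges, and on that scale the higher member with the widest gap was tree_swallow017520. It stood at 45.5, 70.8, 23.3, 33.2, 15.5, 40.4 and 17.6 CPM in high-density embryos 1 to 7, against 9.02, 5.64, 10.8, 7.40, 3.54, 4.32 and 6.20 CPM in low-density embryos 1 to 7. Embryo 2 was the highest of the high-density group and embryo 5 the lowest, and the groups were separated by 4.70 CPM, where the widest gap of any higher member in CPM was 43.5. The means were 35.2 ± 19.3 CPM at high density and 6.70 ± 2.58 CPM at low density (SD, n = 7 each), a log2 ratio of means of 2.39. The fitted log2 fold change, high minus low on TMM-scaled libraries, was 2.37 ± 0.36 (SE).

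The most abundant higher member, tree_swallow002024, was of the opposite kind, with a moderate change and almost no gap. High-density embryos 1 to 7 held 535.3, 690.2, 393.9, 711.9, 356.7, 393.9 and 368.2 CPM, against 334.1, 272.0, 338.8, 301.7, 294.4, 307.9 and 351.4 CPM in low-density embryos 1 to 7. Embryos 2 and 4 stood highest, embryo 1 between, and the other 4 high-density embryos just above the low-density range, the closest by 5.24 CPM. Its means were 492.9 ± 154.0 CPM at high density and 314.3 ± 28.1 CPM at low density (SD, n = 7 each; log2 ratio of means 0.65). On TMM-scaled libraries its groups overlapped, the lowest high-density value being 0.787 times the highest low-density value.

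Among the lower members the widest gap on the same log2 scale was that of tree_swallow000951. Its levels were 30.7, 9.73, 55.3, 19.8, 52.6, 47.7 and 36.4 CPM in high-density embryos 1 to 7, against 68.4, 98.1, 69.6, 67.8, 89.1, 71.7 and 71.8 CPM in low-density embryos 1 to 7. Embryos 2 and 4 were again the farthest from the low-density group, and embryo 3 the nearest, 12.5 CPM below it, where the widest gap of any lower member in CPM was 20.8. The means were 36.0 ± 17.2 CPM at high density and 76.6 ± 11.96 CPM at low density (SD, n = 7 each; log2 ratio of means -1.09, fitted log2 fold change -1.09 ± 0.29 SE). The most abundant lower member, tree_swallow001594, had 194.8, 118.3, 165.3, 174.7, 214.8, 229.9 and 220.7 CPM in high-density embryos 1 to 7, against 236.9, 269.1, 244.3, 246.3, 248.3, 264.7 and 261.7 CPM in low-density embryos 1 to 7. High-density embryo 6 came within 7.0 CPM of the low-density group, and the log2 ratio of means was -0.43. On TMM-scaled libraries high-density embryo 7 stood at 298.1 CPM, above 6 of the 7 low-density embryos.

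**Figure D1:**
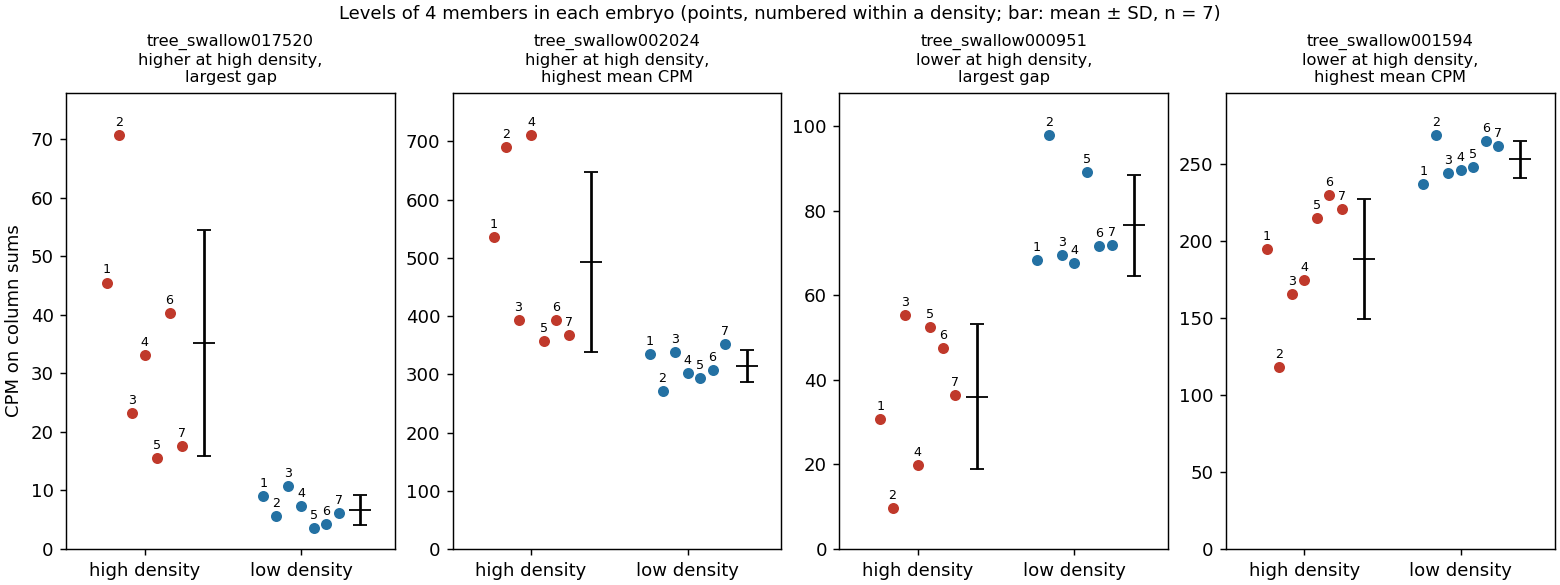
CPM of the 4 members above (vertical axes from 0) in each high-density (red) and low-density (blue) embryo, numbered within its density, with the mean ± SD beside each group (n = 7). The higher members reach from 15.5 CPM and 356.7 CPM upward at high density, with low-density maxima of 10.8 and 351.4 CPM.

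Gaps were narrow in most members. The gap is given here as an edge ratio, the lowest value of the group that lay above divided by the highest value of the group that lay below, so that 1 means touching groups. Its median was 1.07 in the higher members, with a range from 1.002 to 1.45, and 1.04 in the lower members, with a range from 1.001 to 1.23. An edge ratio of 1.1 or more was found in 22 of the 59 higher and 6 of the 24 lower members. The 2 counts that form each edge differed beyond their exact 95% Poisson intervals in 2 higher members and 1 lower member, which was tree_swallow000951. These intervals cover counting error only, and the edges are values that the rule selected, so this is a description. Both of those higher members were abundant, ranked 3 and 4 by mean CPM. The member of rank 3 had a high-density range of 174.0 to 887.8 CPM with a median of 244.7, against a low-density range of 70.3 to 130.5 CPM with a median of 104.1. The member of rank 4 ranged from 141.6 to 712.8 CPM with a median of 254.4 at high density, against 76.45 to 118.3 CPM with a median of 102.7 at low density. In the other members of either direction the intervals of the 2 edge counts overlapped.

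The largest edge ratio, 1.45, belonged to a member of low abundance, which ranked 3 by gap on the log2 scale with 0.5 CPM added. It ranged from 2.86 to 8.95 CPM with a median of 3.88 at high density, against 0.612 to 1.97 CPM with a median of 1.20 at low density, and each of its edge values rested on 12 counts. At the narrow end, the higher member with the smallest edge ratio had 11.7 CPM in high-density embryo 7 and 11.6 CPM in low-density embryo 5, from 49 and 46 counts. The lower member with the smallest one had 6.23 CPM both in high-density embryo 3 and in low-density embryo 6, from 42 and 26 counts.

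**Figure D2:**
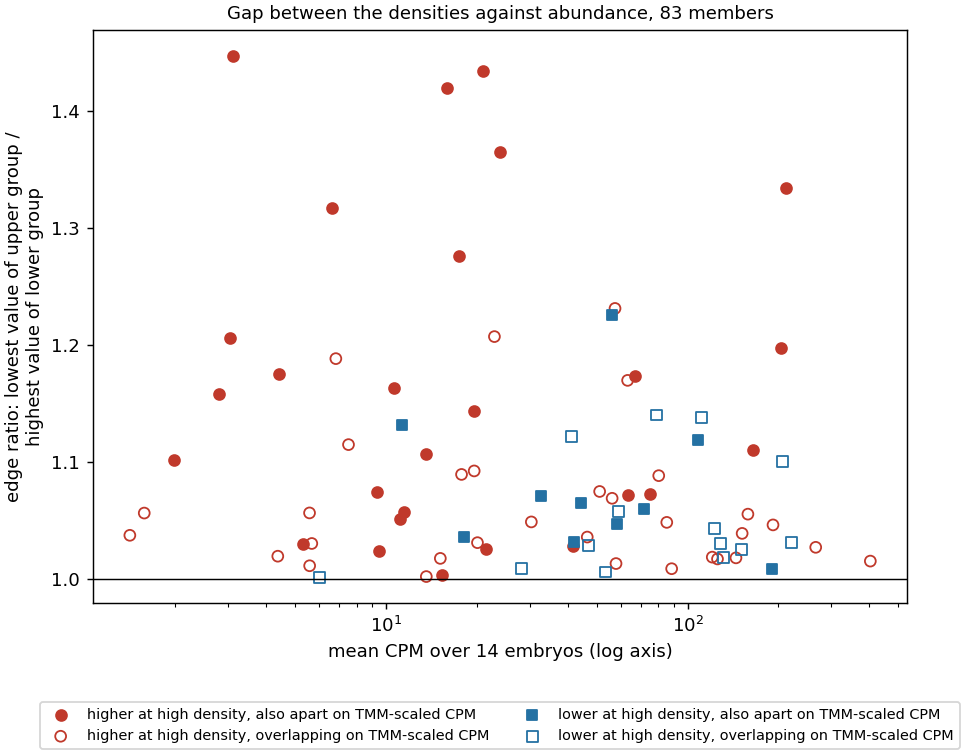
Edge ratio (vertical axis) against mean CPM over 14 embryos (horizontal log axis) for the 83 members, higher (red circles) or lower (blue squares) at high density. Filled symbols, 27 higher and 10 lower members, also separate the densities on TMM-scaled libraries, and open symbols overlap there.

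Members of both directions differed in size and abundance. The log2 ratio of means had a median of 1.20 in the higher members, with a range from 0.26 to 2.76, and of -0.95 in the lower members, with a range from -1.20 to -0.43. Over all 11493 expressed genes with a value the median was 0.02. A ratio of at least 1 log2 unit in size was found in 39 of 59 higher and 8 of 24 lower members, and one of at least 2 units in 5 higher and 0 lower members. The largest ratio, 2.76, came with a modest gap: that gene ranged from 23.8 to 242.5 CPM with a median of 102.9 at high density, against 5.57 to 22.2 CPM with a median of 16.5 at low density, where embryo 7 was the lowest of the high-density group and embryo 5, at 52.5 CPM, the next. The higher member of rank 2 by mean CPM had a log2 ratio of 0.38, with 270.4 to 321.7 CPM at high density, against 187.3 to 263.4 CPM at low density. It varied little among high-density embryos (SD 17.7 CPM, n = 7): embryos 2 and 4 were again the highest, at 321.7 and 313.8 CPM, with embryo 5 at 312.9 CPM.

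Higher members were about as abundant as expressed genes in general, with a median of mean CPM of 20.1 where all 11495 genes had 25.4. Lower members had a median of 58.7. By abundance class, 17 higher members and 1 lower member had a mean under 10 CPM, 31 and 14 lay from 10 to 100 CPM, and 11 and 9 were above, where all expressed genes fell at 28.6%, 53.1% and 18.3% in these classes. A count of 0 in any embryo occurred in 2 higher and 0 lower members. Estimates that were not whole numbers, taken as more than 1e-06 from one, occurred in 3 higher members (5.08%) and 1 lower member (4.17%), where 5.49% of expressed genes had any. The counts of each member differed from those of every other gene.

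High-density embryos 2 and 4 held the extreme values of most members even though the rule had removed the genes with the most extreme shifts in both. One of them was the highest high-density embryo in 52 of 59 higher members (88.1%), where one of them was the highest in 33.5% of all expressed genes. In the lower members one of them was the lowest in 23 of 24 (95.8%), against 25.8% of all expressed genes. Embryo 2 alone accounted for 41 of these higher and 21 of these lower members. The rule used the same CPM values and required members to clear the low-density group, so these shares are a description. The members' medians were also farthest from the low-density group in embryos 2 and 4 in both directions, while the order of the other 5 high-density embryos differed between the directions. Relative to the low-density mean, the median log2 level of the higher members was 0.99, 1.80, 1.15, 1.34, 0.61, 0.85 and 0.59 in high-density embryos 1 to 7, against -0.32 to 0.17 in low-density embryos. That of the lower members was -0.70, -2.23, -0.64, -1.32, -0.47, -0.54 and -0.81 in high-density embryos 1 to 7, against -0.18 to 0.11 in low-density embryos. Without embryos 2 and 4 the median log2 ratio of means was 0.97 in the higher members (0.21 to 2.42) and -0.69 in the lower members (-1.01 to -0.30), where all expressed genes had a median of -0.00.

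Together the members took a small part of each library. The 59 higher members held 0.331 to 0.696% of counts at high density, with a median of 0.407%, against 0.214 to 0.260% at low density, with a median of 0.244%. The 24 lower members held 0.067 to 0.189% of counts at high density, with a median of 0.158%, against 0.231 to 0.282% at low density, with a median of 0.253%. High-density embryo 2 held both extremes. On TMM-scaled libraries the higher members summed to 2943 to 6882 CPM at high density, against 1967 to 2977 CPM at low density, so that high-density embryo 5 lay below low-density embryo 7. The lower members summed to 663.4 to 2132 CPM at high density, against 2269 to 2797 CPM at low density, and did not overlap. Taken singly, 14 of the 24 lower members overlapped on TMM-scaled libraries. The rule chose the members for no overlap on column sums, so the sums on both scales are a description.

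**Figure D3:**
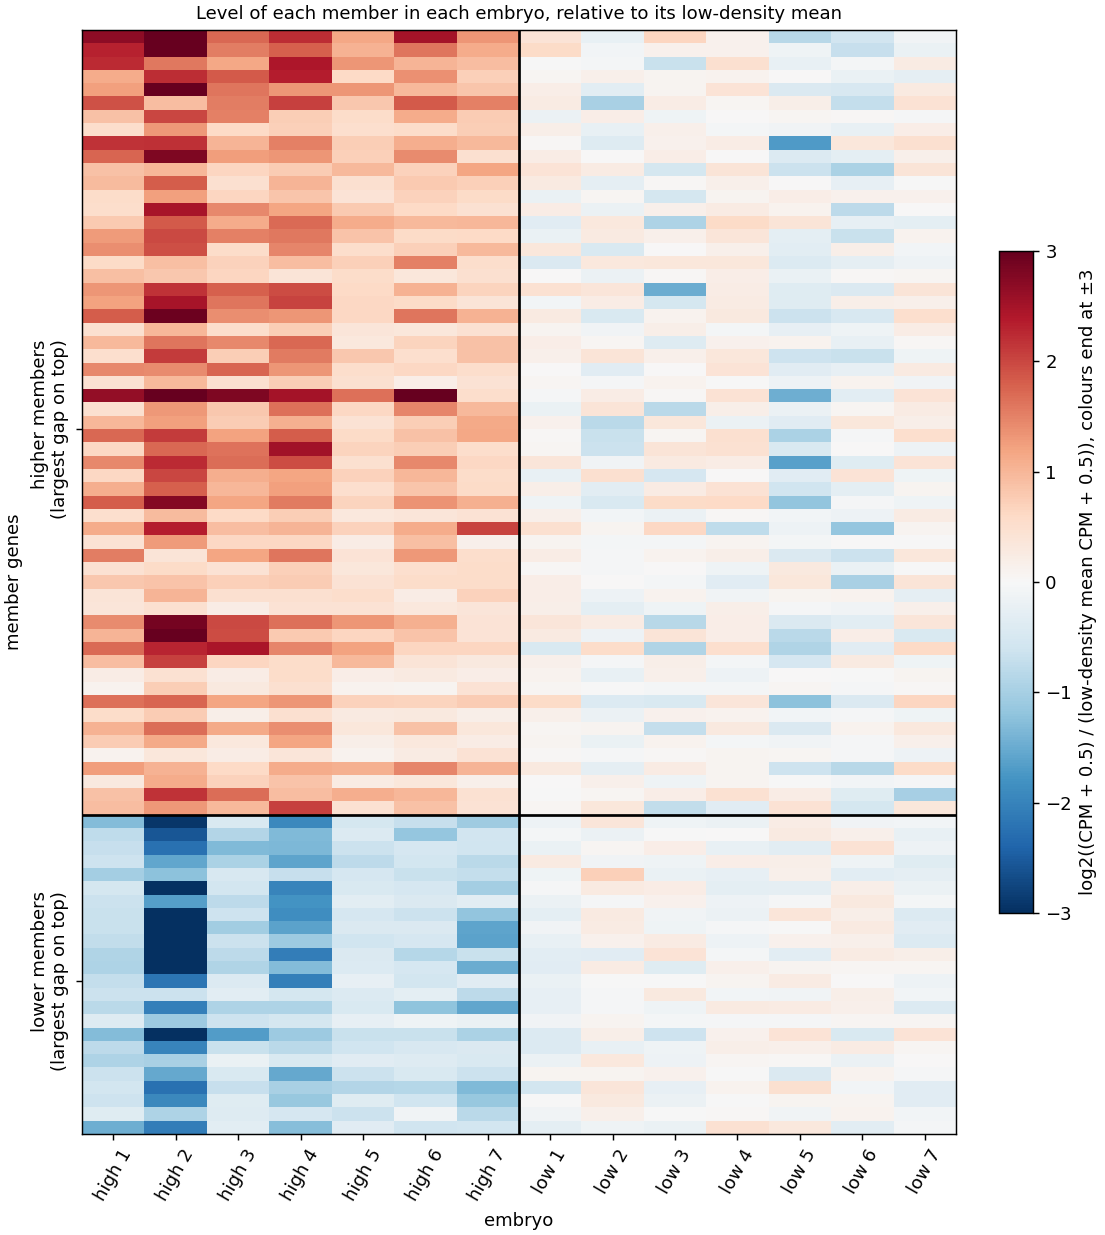
Level of each member (rows, the 59 higher above the line and the 24 lower below it, each ordered by gap) in each embryo (columns, high density on the left), as log2 of CPM + 0.5 over the low-density mean + 0.5, with colours ending at 3 log2 units either way. Columns for high-density embryos 2 and 4 are the darkest and those for embryos 5 and 7 the palest in the higher members.

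The edge facing the other group was held by few embryos. High-density embryos 5 and 7 were the lowest of their group in 25 and 17 higher members, together 71.2%, where one of these embryos was the lowest in 54.7% of expressed genes. Embryo 5 alone was the lowest in 42.4% of higher members, against 9.11% of expressed genes. Embryo 7 alone was the lowest in 28.8% of higher members, against 45.6% of expressed genes. In the lower members the high-density embryo nearest to the low-density group was embryo 5 or 6 in 16 of 24 (66.7%). One of them was the highest in 28.8% of expressed genes. Embryo 5 alone was nearest in 33.3% of lower members, against 24.6% of expressed genes. For embryo 6 alone these shares were 33.3% and 4.19%. On the low-density side, embryos 1, 4 and 7 were nearest in 11, 16 and 15 higher members (71.2%, against 39.4% of expressed genes). Low-density embryos 1 and 7 were nearest in 8 and 7 lower members (62.5%, against 44.4%). Low-density embryo 1 alone was nearest in 33.3% of lower members and the lowest of its group in 7.84% of expressed genes. For low-density embryo 7 alone these shares were 29.2% and 36.5%. All these edges are values that the rule selected, and the shares are a description.

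Leaving out each embryo in turn showed which of them limited the number of separating genes on column-sum CPM. Here no gene was removed for embryos 2 and 4. On this scale high-density embryo 7 was the lowest of its group in 45.6% of expressed genes, and the counts were not repeated on TMM-scaled libraries. Without high-density embryo 7, 440 of 11511 expressed genes had the other 6 high-density embryos above all low-density embryos. Of these, 61 (13.9%) also held with embryo 7. Without embryo 5 there were 124 such genes among 11483 expressed ones, and 49.2% of the 124 also held with it. For the other 5 high-density embryos the share that held was 81.3 to 96.8%, from 63 to 75 genes. For low-density embryos it ran from 62.0% of 100 genes, for embryo 7, to 96.9% of 64 genes, for embryo 5. In the lower direction, 89 of 11483 expressed genes separated the other 13 embryos without high-density embryo 5, and 81 of 11515 without low-density embryo 7. Of the 89 and the 81, 31.5% and 34.6% also held with the embryo included, while all 28 genes found without high-density embryo 2 did. Without both high-density embryos 5 and 7, a choice made after the data were seen, 722 of 11496 expressed genes (6.28%) lay entirely above after the guard. Entirely below lay 101 (0.879%).

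**Figure D4:**
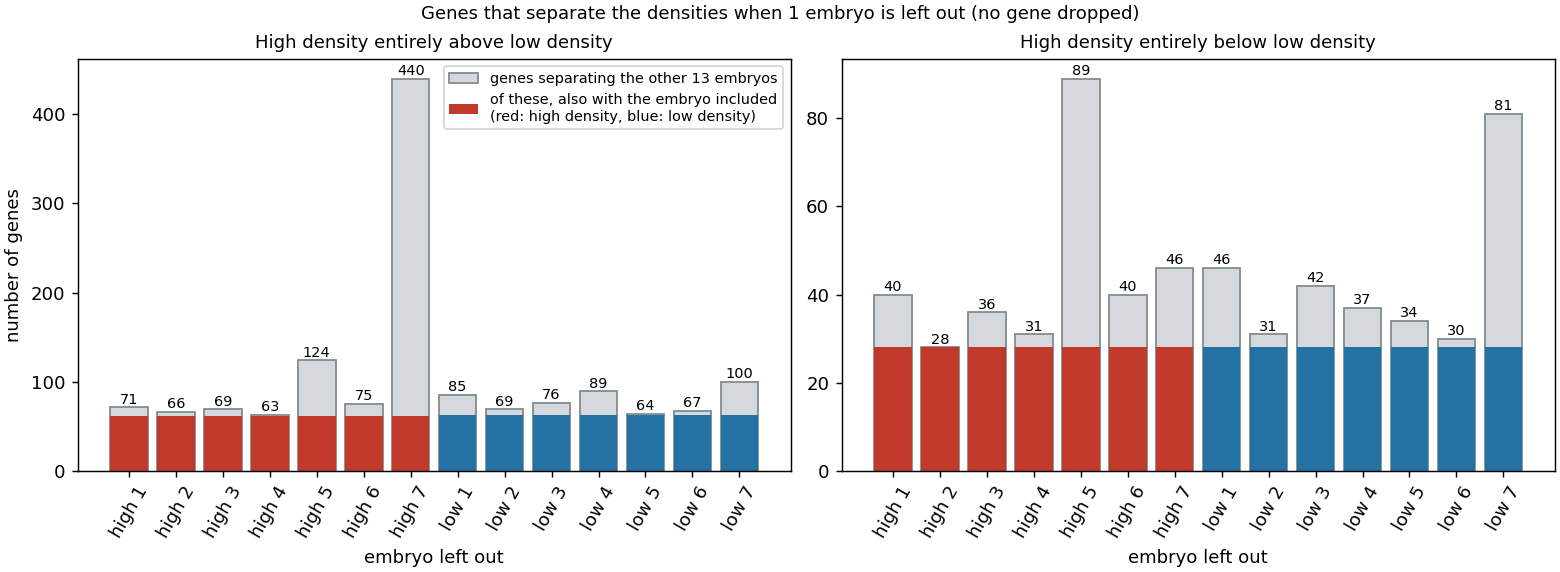
Number of genes that separate the other 13 embryos on column-sum CPM when the embryo on the horizontal axis is left out (grey bars, numbers on top), for high density above (left) and below (right), and the part that still holds with that embryo included (red for high-density, blue for low-density embryos). The bar for high-density embryo 7 reaches 440 genes on the left, and those for high-density embryo 5 and low-density embryo 7 reach 89 and 81 on the right.

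Which genes separated the densities depended on how libraries were scaled. On TMM-scaled libraries 87 genes (0.758% of those expressed) lay entirely above and 42 (0.366%) entirely below after the same guard. Of these, 27 higher and 10 lower genes were members, that is 45.8% of the 59 and 31.0% of the 87, and 41.7% of the 24 and 23.8% of the 42. The same 27 higher members also separated with RLE and upper-quartile factors, and 32 did so with none of the 3. In the lower direction 10 separated with all 3 and 13 with none. Of the higher members with an edge ratio of 1.1 or more, 17 of 22 still separated on TMM-scaled libraries, against 10 of 37 of those with a smaller one. In the 32 higher members that overlapped there, high-density embryo 5 lay inside the low-density range in 29 and low-density embryo 7 inside the high-density range in 29. In the 14 lower members that overlapped, high-density embryo 7 did so in 12. tree_swallow017520 and tree_swallow000951 separated the densities under all 3 factors, and tree_swallow002024 and tree_swallow001594 under none of the 3 factors. After all libraries were thinned to one total, 40 of the 59 higher and 17 of the 24 lower members still separated, all of these named ones among them.

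In edgeR's quasi-likelihood test of high against low density across 10774 genes, 615 genes passed an adjusted p of 0.05 (5.71%; 5.07% higher and 0.64% lower). Of the members, 80 were abundant enough to be tested, and 46 of 56 higher and 12 of 24 lower ones were among the 615. The test and the rule use the same contrast, so nothing is read from these counts or from those of the fits that follow. The balance over all genes differed between tools. DESeq2 called 999 genes higher and 340 lower, against 546 higher and 69 lower in edgeR. In limma-voom, here with quality weights on the samples, 948 were higher and 442 lower. The edgeR count ran from 175 genes without low-density embryo 6 to 1211 without high-density embryo 7. With a surrogate variable, or with the letter prefix of the sample code as a term, 0 members and 0 of all genes passed in edgeR. At an unadjusted p under 0.05 there were then 47 members (58.8%, against 7.82% of all genes) and 46 members (57.5%, against 13.1%). With the prefix as a term, the fitted density difference rests on the 1 prefix found in both groups, 2 against 2 embryos. The SE of the log2 fold change of tree_swallow017520 was then 0.71, against 0.36 without that term. Leaving out embryos 2 and 4, 22 members passed, where 1.01% of all genes did.

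The prefix of the sample code is the only other label by which embryos differ, and the labels do not say what it stands for. Of 6 prefixes, 1 (SW) was shared between the groups, by 2 high-density and 2 low-density embryos. In these embryos the median log2 ratio of means was 1.48 in the higher members (0.26 to 3.66) and -1.01 in the lower members (-1.46 to -0.30). Among the other 5 high-density and 5 low-density embryos it was 1.13 (0.25 to 2.50) and -0.86 (-1.35 to -0.46). Medians over all expressed genes were 0.01 and 0.03 in these subsets. The rule fixes the direction within each subset. The 3 high-density embryos of prefix GP against all low-density embryos had medians of 1.02 and -0.66 in higher and lower members, and the 2 of prefix BA had 1.39 and -1.24, where all expressed genes had medians of 0.09 and -0.14. Prefix BA is embryos 2 and 7, whose own medians of 1.80 and 0.59 in the higher members were the highest and the lowest of the high-density group.

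Differences among the high-density embryos were tested across all genes. The rule used the CPM of each of these embryos and removed genes by embryos 2 and 4, so the members' counts in this test are a description and not independent of the rule. In edgeR's test of any difference between prefixes among the 7 high-density embryos, 0 of 83 members and 0 of 11394 genes (0%) passed an adjusted p of 0.05. At an unadjusted p under 0.05 there were 5 members (6.02%), where 4.08% of all genes were found. DESeq2 called 17 genes (0.149%) and limma-voom 0, with 0 members in both. Counts were simulated for this test over 11275 genes, with changes placed in the 3 embryos of prefix GP only. Of these, 23 of 100 genes changed by 2 log2 units and 88 of 100 changed by 4 were recovered, and 9 of 120 calls were false. Differences of 2 log2 units or less between GP and the other prefixes were thus mostly not detectable. Changes in prefix BA or SW alone were not simulated. Leaving out embryo 2, 4, 6 or 7 leaves a prefix with 1 embryo, which is assumed to vary like the others. Counts at an unadjusted p are therefore not given for those fits. At an unadjusted p under 0.05 there were 5 members (6.02%, against 4.94% of all genes) without embryo 1. There were 0 members without embryo 3 or 5, where 2.05% and 1.18% of all genes were found. In each of these fits 0 genes passed the adjusted threshold.

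Variation with sequencing depth was likewise tested across all genes with density in the model. The members were chosen on CPM, which divides by the library total, so their counts and slopes are again a description. For the log2 library total, 0 of 80 members and 0 of 10774 genes (0%) passed in edgeR. At an unadjusted p under 0.05 there were 13 members (16.2%), where 17.5% of all genes were found. Counts simulated for this test recovered 2 of 98 genes changing by 1 log2 unit from the smallest to the largest library. For changes of 2 units 30 of 100 were recovered, so changes of these sizes were mostly not detectable. DESeq2 called 280 of 10774 genes (2.6%), and 2 of 80 members, both lower ones. Without low-density embryo 5, edgeR called 472 of 10892 genes (4.33%), 3 of them lower members. All 24 lower members had a negative slope on the library total, and 37 of 56 higher members a positive one, where 50.4% of all genes did. High-density embryos 2 and 4 are 2 of the 3 deepest libraries. Without them 22 of 24 lower members had a negative slope and 28 of 56 higher members a positive one, where 54.2% of all genes did. Without high-density embryo 7, 5.79% of all genes and 4 members (5%) were found at an unadjusted p under 0.05 in edgeR. In that fit 22 of 24 lower members had a negative slope and 47 of 56 higher members a positive one, where 49.9% of all genes did.

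Covariation of the members within the densities rested largely on embryos 2 and 4. After each gene was centred on its group's mean, pairs of higher members had a median Pearson correlation of 0.43 across the 14 embryos, pairs of lower members 0.69, and pairs of 1 higher and 1 lower member -0.49, where all pairs of expressed genes had 0.11. Without embryos 2 and 4 these medians were 0.22, 0.16 and -0.13, and 0.16 for all pairs. The rule chose the members on the same CPM values and removed genes by embryos 2 and 4, so these correlations are a description. Genes of a library also share its depth and its scaling, and these values describe the 14 libraries. The spread among high-density embryos was larger than among low-density embryos in 43 of 59 higher members (72.9%) and in 23 of 24 lower members (95.8%), on a log2 scale with 0.5 CPM added, where it was larger in 77.6% of expressed genes. The median SD was 0.51 at high and 0.37 at low density in the higher members, 0.62 and 0.23 in the lower members, and 0.56 and 0.41 over all expressed genes. Without embryos 2 and 4 the high-density medians were 0.37, 0.27 and 0.53 in the same order. The spread was then larger at high density in 32 of 59 higher members (54.2%) and 16 of 24 lower members (66.7%), where it was larger in 71.0% of expressed genes. A rule of no overlap favours genes with little spread within a density, and the guard removed genes by embryos 2 and 4. The members' spreads beside those of all expressed genes are thus a description.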

How the data were processed

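Brain RNA (polyA) of 14 embryos was sequenced, and the authors deposited 1 table of estimated counts per gene, not normalized. The tools listed, per the submitters' processing notes, are Salmon 1.9.0 and fastp 0.20.1. Which transcriptome served as the index, and whether genes had been filtered, is not given in the sources. Columns were matched to samples by their description. Within a density, embryos carry numbers by accession, which pair nothing. The labels name no nests, so whether embryos share one is unknown. Each p-value treats the embryos as independent and reflects only how far these samples spread, which may be technical.

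CPM used column sums of the deposited estimated counts. For tests, estimated counts were rounded, genes kept with filterByExpr (minimum count 10, minimum total 15) and libraries scaled with TMM factors. Tests were edgeR's quasi-likelihood F-tests (R 4.3.3 with edgeR 4.0.16), with Benjamini-Hochberg adjustment over all genes tested, at 0.05. Standard errors of fold changes were derived from F. Alternatives used DESeq2 1.42.0, limma 3.58.1, sva 3.50.0, other scalings and filters, and fits that leave out embryos. Each test was tried on simulated data. For high against low density over 10666 genes it recovered 48 of 99 with a log2 change of 1 and 86 of 97 with one of 2. For the library total over 10671 genes, log2 changes of 1 and 2 were spread from the smallest to the largest library. Of these, 2 of 98 and 30 of 100 were recovered.

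The members and lists were chosen with earlier results of these data known. In each direction 2 members are named, the one with the largest gap and the one with the highest mean CPM.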

Additional observations from a re-analysis of the deposited data

Results flagged for a closer look

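Outliers were sought in 20 groups of 7 values, and 2 groups had an embryo far from the rest. The groups were the 4 named members, the members' summed share and median level in each direction, total counts and genes detected, in each density. Apart from total counts and genes detected, these are values that the rule selected. The groups also share embryos and genes, so no rate of flags by chance is given and the flags are a description. The summed share of the higher members was 0.696% of counts in high-density embryo 2, and the next highest high-density embryo held 0.478%. That gap was 0.596 of the group's range, above the limit of 0.568 for 7 samples. High-density embryo 7 had 11308 genes detected, and the next lowest high-density embryo 12225, a gap of 0.751 of the range.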

How the results depend on the processing

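The number of higher members, 59 (0.513% of expressed genes), was 99 (0.861%) without the embryos of the shared code prefix. It was 722 (6.28%) without high-density embryos 5 and 7, 22 (0.191%) with a least edge ratio of 1.1 and 2 (0.0174%) with Poisson intervals at the edge apart. The number of lower members, 24 (0.209%), was 55 (0.478%), 101 (0.879%), 6 (0.0522%) and 1 (0.0087%) in the same order. It was 42 (0.366%) with TMM, 50 (0.435%) with RLE and 41 (0.357%) with upper-quartile factors. When genes were removed from a 2-fold shift in embryos 2 and 4 on, it was 11 (0.0957%). Without 1 embryo each, higher members numbered 62 (0.539%) to 414 (3.6%) and lower members 26 (0.226%) to 74 (0.644%). Of these, the higher members moved by over 1.5 times without high-density embryos 5 (119, 1.04%) and 7 (414) and low-density embryo 7 (97, 0.842%). The lower members did so without high-density embryos 5 (74) and 7 (38, 0.33%), and without low-density embryos 1 (40, 0.348%) and 7 (59, 0.512%). The guard needs both high-density embryos 2 and 4, and was not applied where either was left out. The 58 members that passed for density became 0 with a surrogate variable and 0 with the code prefix as a term. That term leaves the density difference to the 2 against 2 embryos of the shared prefix. The number was 22 without embryos 2 and 4, where 1.01% of all genes passed. Without 1 embryo each it was 25 (without low-density embryo 6) to 68 (without high-density embryo 7). Of all genes, 1.61% and 11.1% passed in those 2 fits. It was 36 without high-density embryo 4, and 30, 38, 37, 30 and 25 without low-density embryos 2 to 6. Over all genes 5.71% passed with all embryos, 2.57% in that fit without high-density embryo 4, and 2.31%, 2.61%, 3.65%, 2.1% and 1.61% in those without low-density embryos 2 to 6. Members that passed for the library total were 2 with DESeq2, where 2.6% of all genes passed. They were 0 to 3 without 1 embryo each (3 without low-density embryo 5, where 4.33% of all genes passed). Members that passed for the prefix among high-density embryos were 0 with edgeR, DESeq2 and limma-voom. The cause of these moves was not tested. By construction, the rule asks less of fewer embryos and more with a stricter gap, whatever the data. The direction of the named genes is set by the rule. The log2 fold change of tree_swallow002024 was 0.17 with a surrogate variable and that of tree_swallow017520 was 3.21 with the prefix term. Added after the data were seen were the settings without embryos 5 and 7, the least edge ratio, the Poisson intervals and the members' sums on TMM-scaled libraries. At these depths the Poisson intervals overlap in most gaps. No paired analysis was possible because the labels link no high-density embryo to a particular low-density one.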
